A study of Mus musculus with 7 samples.

Results

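The 10 genes B2m, H2-K1, H2-D1, Tap1, Tap2, Tapbp, Psmb8, Psmb9, H2-Aa and Cd74, which serve MHC antigen processing and presentation, were read out in mouse precision-cut liver slices (PCLS), thin discs of living liver tissue kept in culture. They were found by matching the Ensembl identifiers of the count table to the GENCODE annotation of GRCm38, and all 10 were among the 55487 genes listed. Slices of healthy male Balb/c liver were kept for 3 days in medium without valproic acid sodium salt (CTR, 3 libraries) or with 2.5 mM VPA (VPA, 4 libraries). VPA is an inhibitor of class I histone deacetylases, added to hold back the activation of hepatic stellate cells by slicing. The slices had no other treatment, and the age of the single animals was not in the labels. Because each library came from whole slices, fewer cells of a type and less RNA per cell cannot be told apart.

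MHC class I molecules show peptides from inside the cell to CD8 T cells and are made by nearly every nucleated cell. A heavy chain (H2-K1 and H2-D1 in the mouse) pairs with the light chain beta-2 microglobulin (B2m). Peptides are cut by the proteasome, in which the interferon-induced subunits Psmb8, Psmb9 and Psmb10 replace Psmb5, Psmb6 and Psmb7, then pumped into the endoplasmic reticulum by the transporter Tap1-Tap2 and loaded with the help of tapasin (Tapbp). MHC class II molecules, here the alpha chain H2-Aa with its chaperone, the invariant chain Cd74, show peptides taken up from outside the cell and belong mainly to macrophages, dendritic cells and B cells. In liver the Kupffer cells, the resident macrophages, and the sinusoidal endothelium are known to carry antigen-presenting molecules.

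Of the 10 genes, 8 lie in or next to the MHC region of chromosome 17 of GRCm38. In order along the chromosome these are Tapbp (33915899 to 33929292, + strand), H2-K1 (33996017 to 34000347, − strand), Psmb9 (34181987 to 34187764, − strand), Tap1 (34187553 to 34197225, + strand), Psmb8 (34197721 to 34201454, + strand), Tap2 (34203527 to 34216321, + strand), H2-Aa (34282744 to 34287823, − strand) and H2-D1 (35262730 to 35267499, + strand). B2m is on the + strand of chromosome 2 (122147686 to 122153083), and Cd74 is also outside the MHC. All 10 are protein-coding. Psmb9 and Tap1 are head to head and their annotated genes overlap by 212 bases.

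RefSeq promoter windows of GRCm38.p6, 250 bases before to 50 bases after the first listed start, were searched for 8 of the 10 genes. The following 5 are printed, on the strand of the gene, because class I and class II genes are known to be switched on through shared elements close to their starts. Capitals mark 4 searched letter patterns on either strand, which are TGACG (core of the X2 box, read by CREB-type factors), ATTGG (core of the Y box, read by NF-Y), AANNGAAA (core of sites for interferon regulatory factors) and the palindromic site of NF-κB that class I genes carry. The windows are chr17:34000298-34000597 (H2-K1), chr17:35262844-35263143 (H2-D1), chr2:122147437-122147736 (B2m), chr17:34187306-34187605 (Tap1) and chr17:34287774-34288073 (H2-Aa).
H2-K1: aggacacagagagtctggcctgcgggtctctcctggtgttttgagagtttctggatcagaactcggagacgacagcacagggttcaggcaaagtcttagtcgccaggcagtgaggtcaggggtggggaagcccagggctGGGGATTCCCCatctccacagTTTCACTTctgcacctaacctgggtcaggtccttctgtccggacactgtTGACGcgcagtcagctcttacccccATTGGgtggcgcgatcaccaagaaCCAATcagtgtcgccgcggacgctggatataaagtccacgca
H2-D1: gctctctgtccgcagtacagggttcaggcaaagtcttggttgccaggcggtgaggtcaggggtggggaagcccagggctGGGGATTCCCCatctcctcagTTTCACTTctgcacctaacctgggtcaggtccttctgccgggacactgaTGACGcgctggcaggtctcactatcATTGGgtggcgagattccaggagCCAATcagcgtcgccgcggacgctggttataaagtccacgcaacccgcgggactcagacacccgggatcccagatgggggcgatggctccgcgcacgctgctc
B2m: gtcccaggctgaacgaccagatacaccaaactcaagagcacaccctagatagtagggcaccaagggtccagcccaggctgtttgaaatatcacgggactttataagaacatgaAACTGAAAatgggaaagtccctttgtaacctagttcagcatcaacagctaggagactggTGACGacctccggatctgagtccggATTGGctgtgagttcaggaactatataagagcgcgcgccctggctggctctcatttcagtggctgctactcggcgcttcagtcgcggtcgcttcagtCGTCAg
Tap1: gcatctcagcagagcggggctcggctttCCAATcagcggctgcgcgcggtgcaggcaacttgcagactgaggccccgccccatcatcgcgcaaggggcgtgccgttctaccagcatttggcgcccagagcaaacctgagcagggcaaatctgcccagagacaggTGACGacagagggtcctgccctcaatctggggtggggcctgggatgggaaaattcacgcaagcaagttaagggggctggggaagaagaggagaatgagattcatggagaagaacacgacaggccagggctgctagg
H2-Aa: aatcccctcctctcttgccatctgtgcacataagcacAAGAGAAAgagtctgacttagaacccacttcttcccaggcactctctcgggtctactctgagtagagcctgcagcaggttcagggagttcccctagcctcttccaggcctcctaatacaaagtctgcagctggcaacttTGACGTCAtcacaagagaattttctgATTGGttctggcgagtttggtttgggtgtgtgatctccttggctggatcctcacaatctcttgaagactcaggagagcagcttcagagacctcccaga

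TGACG and ATTGG were both present in 6 of the 8 windows, against 8.05% of all 27025 promoter windows of the same length. The 6 are those of B2m, H2-K1, H2-D1, Tap1, Psmb9 and H2-Aa. The search set no order, strand or spacing. In B2m, H2-K1, H2-D1 and H2-Aa an ATTGG closely followed a TGACG on the same strand. In Tap1 (TGACG at −86, ATTGG at −222 from the start) and Psmb9 (−144 and −8) they lay farther apart, on opposite strands. Singly, TGACG was found in 21.02% and ATTGG in 37.9% of all windows. AANNGAAA was found in B2m, H2-K1, H2-D1 and H2-Aa, against 24.2% of all windows. The NF-κB site was found in H2-K1 and H2-D1, and in 6 of the 27025 windows in all. H2-K1 and H2-D1 share a run of 47 bases in these windows, which belong to copies of a duplicated gene. The windows of Psmb9 and Tap1 share 275 bases, since the genes run in opposite directions from starts close together, so that these 2 do not count as separate matches. In H2-Aa the patterns TGACG and its reverse complement, CGTCA, overlap. Of the other 2 windows, Tapbp held only ATTGG and Psmb8 held none of the 4 patterns.

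Depth ran from 1400887 to 4773750 counts per library, and 3 counts, the most that a count of 0 allows, stood for 0.579 to 2.37 CPM (counts scaled to a common library total) after TMM normalization. This limit covers counting error only. The CTR libraries had 17744 to 19756 genes with at least 1 count, the VPA libraries 14359 to 16761. Hepatocyte genes were plainly present, with albumin (Alb) between 773 and 4965 CPM. Because the kit counts 1 stretch at the 3′ end of each RNA, CPM of different genes were compared without division by gene length. Of the 10 genes, 8 passed edgeR's filter on low counts and were tested with its quasi-likelihood test over 10876 genes, and Tap2 and H2-Aa did not pass. Among all genes tested, 0.00919% (1 gene) had an adjusted p under 0.05, and 3.65% were higher and 4.62% lower with VPA at an unadjusted p under 0.05.

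In slices with or without VPA B2m and H2-D1 were the most abundant of the 10 genes, Tapbp followed, Cd74, the transporter and the immunoproteasome genes were low, and H2-Aa was not counted. After adjustment 0 of the 8 tested genes passed the threshold of 0.05 in edgeR, beside 0.00919% of all genes, and 0 of the 9 with a count did in DESeq2, beside 1.01% of the 15261 genes to which DESeq2 gave an adjusted p. Limma-voom and the other fits made gave 0 as well. At an unadjusted p under 0.05 edgeR found 1 of the 8 tested, H2-D1, which was higher with VPA, where 8.28% of all genes tested passed in either direction. The log2 fold changes of the 8 lay between 0.02 and 0.71.

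B2m, the light chain that every class I molecule shares, had 1113, 1191 and 1696 CPM in CTR replicates 1 to 3. In VPA replicates 1 to 4 it had 1349, 1229, 1940 and 1044 CPM. The groups overlapped fully, with 1 VPA library above and 1 below all CTR libraries. The means were 1333 ± 316 CPM (SD, n = 3) and 1390 ± 387 CPM (SD, n = 4), and the log2 fold change, with its SE, was 0.06 ± 0.254 (edgeR, adjusted p = 0.978). The sample labels carry a PCLS number, which recurs in both groups and whose meaning (an animal, a day or a culture) they do not give. Number 71 had the highest and number 72 the lowest B2m in each group. Between libraries of the same number (71, 72 and 74), VPA stood to CTR as 1.14, 0.938 and 1.03 to 1.

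H2-D1, a classical heavy chain, had 603, 829 and 805 CPM in CTR replicates 1 to 3 and 1305, 1288, 1335 and 815 CPM in VPA replicates 1 to 4. VPA replicates 1, 2 and 3 lay above all CTR libraries, while VPA replicate 4 lay within the CTR range. The means were 746 ± 125 CPM (SD, n = 3) and 1186 ± 248 CPM (SD, n = 4). The log2 fold change was 0.67 with a standard error of 0.221 (unadjusted p = 0.0176, adjusted p = 0.487 from edgeR), and the two-sided exact permutation test of log2 CPM gave p = 0.0857, where 0.0286 is the smallest p that 3 against 4 libraries allow. The difference therefore did not hold up against all genes tested. VPA replicate 4 and CTR replicate 1, each the lowest of its group, carry the same PCLS number, 72. For numbers 71, 72 and 74 the VPA library had 1.66, 1.35 and 1.55 times the H2-D1 CPM of the CTR library, given as a description since the numbers may not pair the libraries.

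H2-K1, the other classical heavy chain among the 10 genes, was much lower, with 49.99, 64.4 and 66.8 CPM in the CTR libraries. The VPA libraries had 90.2, 102, 87.6 and 44.6 CPM. As for H2-D1, VPA replicates 1, 2 and 3 lay above all CTR libraries, but VPA replicate 4 was the lowest of all 7. For PCLS numbers 71, 72 and 74 the VPA library had 1.31, 0.892 and 1.59 times the H2-K1 CPM of the CTR library. The log2 fold change, with its SE, was 0.43 ± 0.294 (edgeR, adjusted p = 0.824). H2-D1 had between 12.1 and 18.3 times the CPM of H2-K1. Both values are uncertain in level. Of the different 50-base stretches in the last 300 bases of their GENCODE transcripts, 9.54% for H2-K1 and 13.5% for H2-D1 also occur in transcripts of another gene, including each other, and Balb/c mice carry other alleles of these genes (haplotype d) than the C57BL/6 reference genome (haplotype b), to which the reads were mapped. All slices were Balb/c, and what this did to the counts was not tested.

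Set against the light chain of the same library, H2-D1 stood at 0.541, 0.696 and 0.475 times the CPM of B2m in CTR replicates 1 to 3 and at 0.967, 1.05, 0.688 and 0.781 times in VPA replicates 1 to 4. This ratio was chosen after the values were seen. The groups overlapped by 1 library on each side, since VPA replicate 3 lay just under CTR replicate 2. The log2 ratio was −0.83 ± 0.280 (SD, n = 3) in CTR and −0.22 ± 0.278 (SD, n = 4) in VPA, a difference of 0.61 (two-sided exact permutation test, p = 0.0857).

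**Figure D1:**
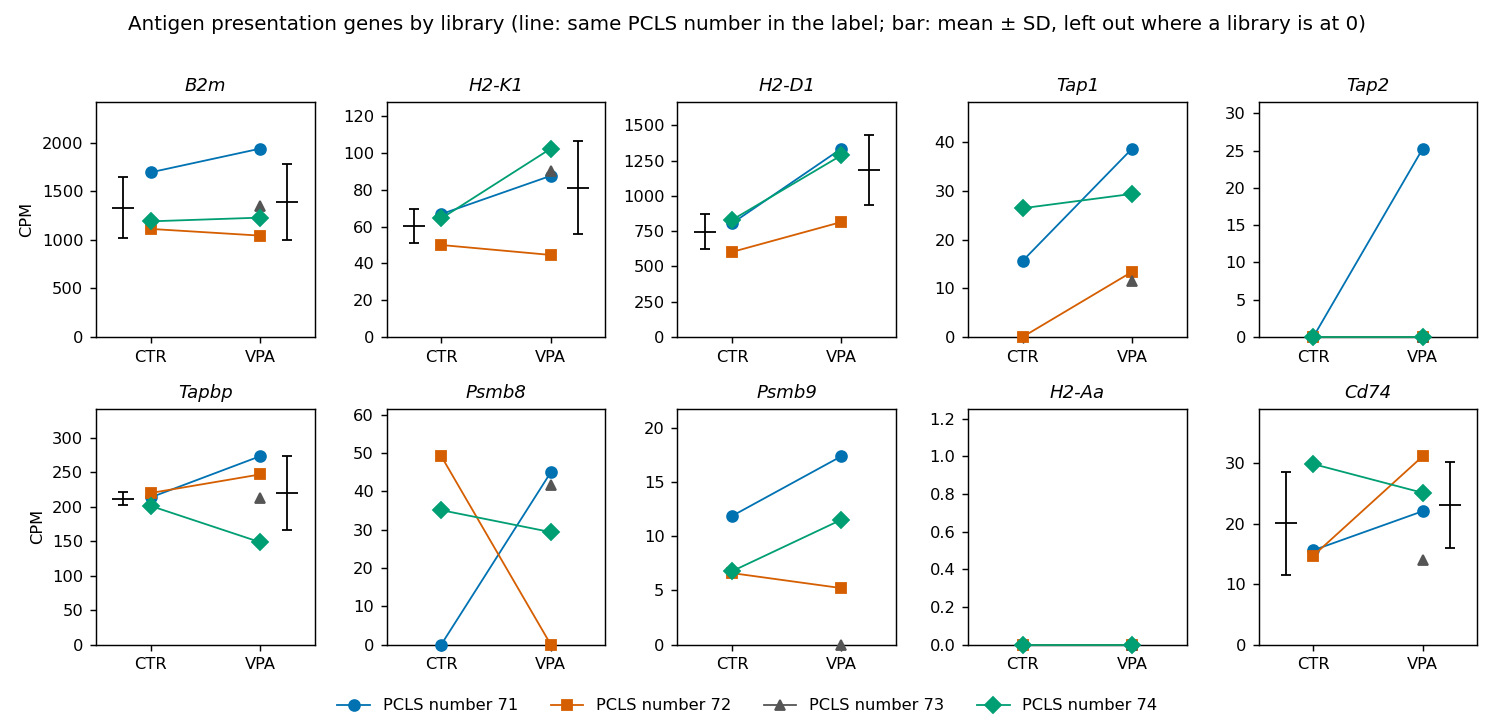
CPM of the 10 genes in each library, with CTR on the left and VPA on the right of each panel. Points are libraries, lines join libraries with the same PCLS number in the label, and bars are the mean ± SD, left out for genes with a library at 0. B2m overlaps between the groups, H2-D1 reaches 1288 to 1335 CPM in 3 VPA libraries, and H2-Aa has no count in any.

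Tapbp, the tapasin that holds empty class I molecules at the transporter, had 220, 201 and 213 CPM in the CTR libraries and 212, 148, 273 and 247 CPM in the VPA libraries. The VPA values lay on both sides of the narrow CTR range, and the log2 fold change, with its SE, was 0.05 ± 0.213 (edgeR, adjusted p = 0.975). Zbtb22 overlaps Tapbp on the same strand, but held only 202 counts in all libraries against 3504 for Tapbp.

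The transporter genes were sparse. Tap1 had 0, 26.4 and 15.6 CPM in CTR replicates 1 to 3 and 11.5, 29.4, 38.7 and 13.4 CPM in VPA replicates 1 to 4. The 0 in CTR replicate 1 stood beside 137 counts in CTR replicate 2, and the groups overlapped. The log2 fold change of Tap1, with its SE, was 0.71 ± 1.16 (edgeR, adjusted p = 0.949), and it was 0.12 without CTR replicate 1 and 1.58 without CTR replicate 2. Tap2 had 32 counts in VPA replicate 3, which was 25.3 CPM, and 0 counts in each of the other 6 libraries. Tap1 was not alone in having a library at 0. Among the 5450 genes with a mean between 10 and 50 CPM, which is the level of Tap1, 24.2% had at least 1 library at 0, against 2.02% of the 1388 genes between 100 and 500 CPM.

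Among the immunoproteasome subunits, Psmb8 had 49.2, 35.1 and 0 CPM in the CTR libraries and 41.6, 29.4, 45.0 and 0 CPM in the VPA libraries, so that 1 library of each group held no count. Its log2 fold change, with its SE, was 0.03 ± 1.43 (edgeR, adjusted p = 0.999). Psmb5, the standard subunit in its place, had 63.2 to 95.3 CPM in all 7 libraries. Psmb9 had 6.59, 6.75 and 11.9 CPM in the CTR libraries and 0, 11.5, 17.4 and 5.20 CPM in the VPA libraries, at a log2 fold change of 0.02 ± 1.14 (SE, with an edgeR adjusted p = 0.999). Its counterpart Psmb6 had 178 to 264 CPM, and no library had more than 0.0973 times as much Psmb9 as Psmb6. The third subunit, Psmb10, was counted in CTR replicate 2 only, at 28.2 CPM.

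The log2 ratio of Psmb8 to Psmb5 was −2.98 ± 3.15 (SD, n = 3) in CTR and −2.39 ± 2.62 (SD, n = 4) in VPA, a difference of 0.59, smaller than either SD (two-sided exact permutation test, p = 0.6, or 0.8 adjusted over 3 ratios). For Psmb9 to Psmb6 it was −4.82 ± 0.437 and −5.28 ± 2.16, a difference of −0.47 (exact permutation test, p = 0.8, adjusted p = 0.8). For Psmb10 to Psmb7 the log2 ratio rests on 1 library with a count of Psmb10 (exact permutation test, p = 0.457, adjusted p = 0.8). Libraries at 0 set these ratios through the prior count of 2, and the permutation test told none of the 3 differences from the spread between libraries.

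Of the class II genes, H2-Aa had 0 counts in all 7 libraries, which allows up to 0.579 CPM in the deepest and 2.37 CPM in VPA replicate 3. Cd74 (chromosome 18, 60803848 to 60812652, + strand), which some cells also make apart from class II, had 14.7, 29.9 and 15.6 CPM in the CTR libraries and 14.1, 25.1, 22.1 and 31.2 CPM in the VPA libraries. The groups overlapped, and the log2 fold change of Cd74, with its SE, was 0.19 ± 0.417 (edgeR, adjusted p = 0.961). With 1 library left out it ran from 0.0014 (without CTR replicate 1) to 0.60 (without CTR replicate 2). The partner chain H2-Ab1 was counted in 3 libraries, at 8.30 CPM in CTR replicate 2 and at 10.9 and 21.2 CPM in VPA replicates 1 and 2. The peptide-exchange genes H2-DMa and H2-DMb1 were each counted in CTR replicate 2 only, and the class II transactivator Ciita in CTR replicate 3 only. H2-Aa is also polymorphic between the mouse haplotypes, and the part of this in its count of 0 was not tested.

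The other genes of the pathway were taken from lists of general knowledge. Among 20 class I heavy chains and relatives, 8 passed the filter, 6 more were counted but not tested, 5 had no count in any library and H2-L was not found in the table by symbol. All 8 tested had a higher value with VPA. Of the 6 not tested, 2 had a higher and 4 a lower mean CPM with VPA, among them H2-M2 with 12.01, 10.2 and 0 CPM in CTR and no count in VPA. The filter thus bears on the count of 8, and Mr1, counted in 2 of 3 CTR and 4 of 4 VPA libraries, passed it through its VPA libraries. Their median log2 fold change was 0.75, beside −0.06 over all 10876 genes, of which 4982 were higher. None had an adjusted p under 0.05, and H2-D1 alone had an unadjusted p under 0.05. In 9 of the 16 other fits 1 of the tested chains was lower instead. Whether near-identical stretches split reads among these chains was not tested.

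H2-Q7, a nonclassical class I gene, had 19.0, 27.2 and 15.6 CPM in the CTR libraries and 55.7, 38.8, 36.3 and 17.8 CPM in the VPA libraries. H2-T22, whose product is a ligand of γδ T cells, had 35.3, 47.5 and 33.4 CPM in CTR and 71.7, 123, 60.0 and 31.2 CPM in VPA. Both repeated the order of H2-D1, with VPA replicates 1 to 3 above all CTR libraries and VPA replicate 4 within or below their range. For PCLS number 72 the VPA library had 0.939 times the H2-Q7 and 0.885 times the H2-T22 of the CTR library. H2-Q4 had 5.42, 6.17 and 8.08 CPM in CTR and 16.6, 16.1, 9.47 and 8.92 CPM in VPA, without overlap, where 4.46% of all genes tested were higher without overlap. Mr1, which presents metabolites of vitamin B2 synthesis to MAIT cells, had 5.81, 0 and 9.16 CPM in CTR and 33.9, 17.3, 15.8 and 15.6 CPM in VPA, also without overlap. These 4 genes were picked once their values had been seen, and their adjusted p from edgeR lay between 0.663 and 0.744.

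**Figure D2:**
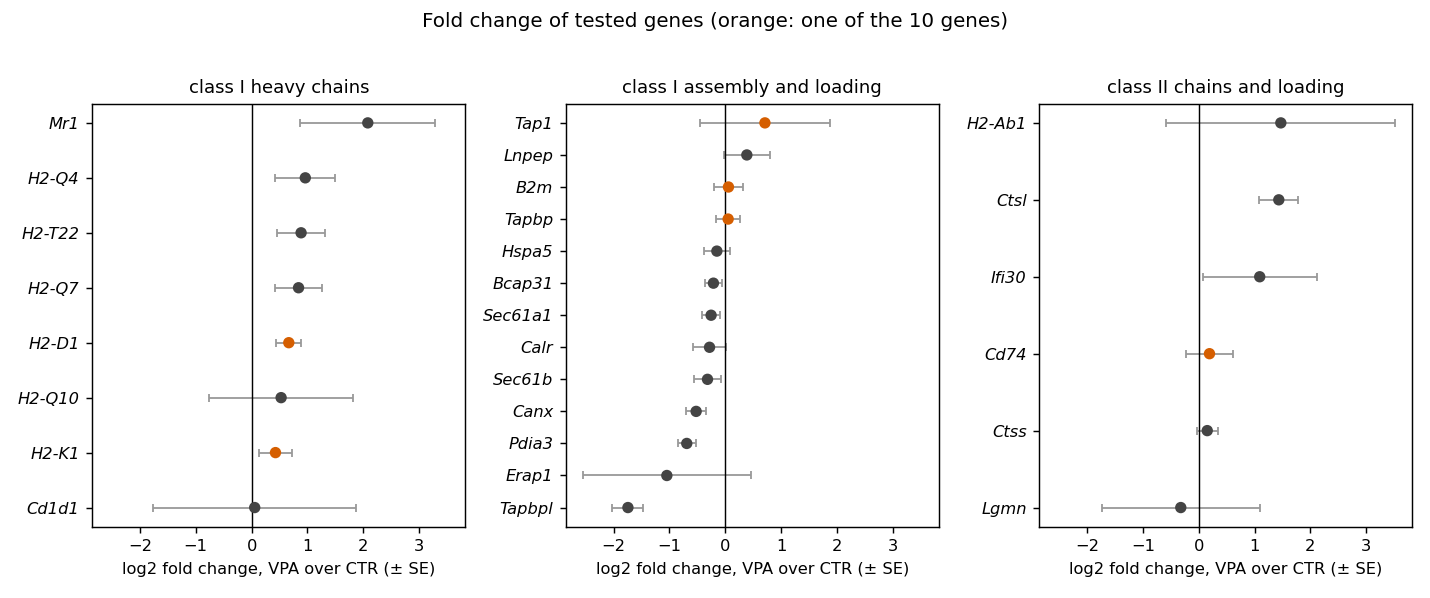
Log2 fold change (VPA over CTR, ± standard error) of the tested genes of the class I heavy chain, class I assembly and class II lists, from edgeR. Orange points are genes of the 10. In this fit the heavy chains all lie right of 0 (1 is left of 0 in 9 of 16 other fits), Tapbpl, Pdia3 and Canx lie left of 0 and Ctsl lies right of it.

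Of 14 genes that fold and load class I molecules, 13 were tested, 4 were higher and 9 lower with VPA, and the median log2 fold change was −0.25 (−0.13 without CTR replicate 3). None passed after adjustment in the edgeR fit over 10876 genes. The 3 with an unadjusted p under 0.05, Tapbpl, Pdia3 and Canx, had lower values with VPA, beside 4.62% of all genes tested. Tapbpl, a tapasin relative that edits the bound peptides away from the transporter, had 50.4, 36.5 and 59.3 CPM in CTR and 16.0, 14.5, 11.8 and 15.6 CPM in VPA. The groups were fully apart, where 7.38% of all genes tested were lower without overlap. The log2 fold change of Tapbpl, with its SE, was −1.74 ± 0.277 (edgeR, unadjusted p = 0.000288, adjusted p = 0.142), and DESeq2 gave an adjusted p of 0.00128. With at least 10 counts required in every sample, edgeR gave an adjusted p of 0.0270. Vamp1 overlaps Tapbpl on the other strand, and whether the counting used strand is not stated.

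Pdia3, the oxidoreductase ERp57 of the loading complex, had 431, 475 and 609 CPM in CTR and 301, 359, 303 and 291 CPM in VPA, again without overlap. Its log2 fold change, with its SE, was −0.69 ± 0.161 (edgeR, adjusted p = 0.295). Canx, the chaperone calnexin that binds new heavy chains, had 486, 442 and 585 CPM in CTR and 291, 314, 385 and 420 CPM in VPA, at a log2 fold change of −0.52 ± 0.178 (SE, with an edgeR adjusted p = 0.514). Both also serve the folding of many other glycoproteins. Calr, the related calreticulin, overlapped between the groups, with 759 to 1499 CPM in CTR and 627 to 1208 CPM in VPA. For PCLS numbers 71, 72 and 74, Tapbpl in VPA was 0.200, 0.310 and 0.399 times its CTR level and Pdia3 was 0.498, 0.676 and 0.754 times its CTR level.

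Among the immunoproteasome subunits, their activator and assembly factor, 6 of 7 genes were tested, 3 were higher and 3 lower, and none had an unadjusted p under 0.05. Among 14 standard core subunits, 5 were higher and 9 lower (7 and 7 without VPA replicate 1), with a median log2 fold change of −0.05 that lay between −0.10 (without CTR replicate 1) and −0.017 (without CTR replicate 2) when 1 library was left out. Psma4 alone had an unadjusted p under 0.05. It had 294 to 311 CPM in CTR and 210 to 264 CPM in VPA (log2 fold change −0.33, standard error 0.133, adjusted p = 0.575 from edgeR).

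Of 16 class II and endosomal genes, 6 were tested, 5 were higher and 1 lower with VPA. Ctsl, the lysosomal protease cathepsin L, which trims the invariant chain in thymic epithelium and serves general lysosomal breakdown elsewhere, had 624, 367 and 532 CPM in CTR and 1034, 1454, 2136 and 872 CPM in VPA. The groups did not overlap, where 4.46% of all genes tested were higher without overlap. The naming rule itself asked for no overlap and an unadjusted p under 0.05. The log2 fold change of Ctsl, with its SE, was 1.43 ± 0.350 (edgeR, unadjusted p = 0.00388, adjusted p = 0.320), and DESeq2 gave an adjusted p of 0.00755. Ctss, cathepsin S, the protease of the invariant chain in antigen-presenting cells, had 70.0 to 78.3 CPM in CTR and 68.7 to 104 CPM in VPA, with overlap.

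**Figure D3:**
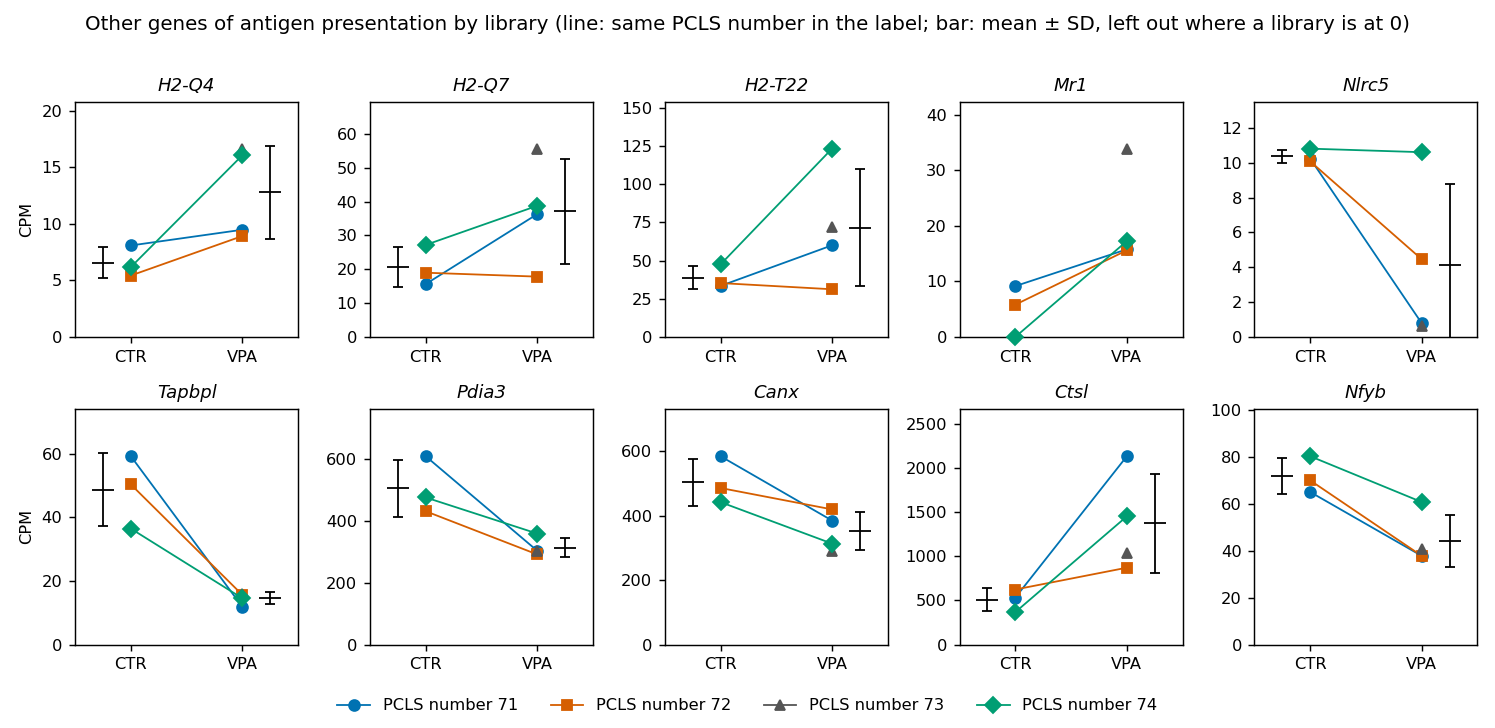
CPM of other genes of antigen presentation in each library, drawn as in the plot of the 10 genes. Tapbpl, Pdia3, Canx and Nfyb are lower and Ctsl, H2-Q4 and Mr1 higher in every VPA library than in any CTR library. These genes were picked with their values known, and 7.38% of all genes tested were lower and 4.46% higher without overlap. The lower bar of Nlrc5 runs past the axis.

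Of 13 regulators of MHC genes, 12 were tested, 2 were higher and 10 lower, with a median log2 fold change of −0.58 and no adjusted p under 0.05. The median was −0.23 without CTR replicate 2. Nfyb, a subunit of the Y box factor NF-Y, had 70.1, 80.5 and 65.2 CPM in CTR and 41.0, 60.9, 37.9 and 37.9 CPM in VPA (log2 fold change −0.69, standard error 0.229, unadjusted p = 0.0174, adjusted p = 0.487 from edgeR). Nlrc5, the transactivator of class I genes, had 10.1, 10.8 and 10.2 CPM in CTR and 0.640, 10.6, 0.789 and 4.46 CPM in VPA, and its log2 fold change, with its SE, was −1.28 ± 0.987 (edgeR, adjusted p = 0.860). VPA replicate 2 held as much Nlrc5 as the CTR libraries. Nlrc5 is named after its values were seen.

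Of 44 genes of the interferon response, 27 were tested, 14 were higher and 13 lower, and the median log2 fold change was 0.05. The list holds 7 receptors and kinases of interferon signalling, of which 1 was higher and 6 lower. Of its other 37 genes 20 were tested, 13 were higher and 7 lower, a split made after the values were seen. The chemokine Cxcl10 was the only one of these genes with an unadjusted p under 0.05, and is named after its values were seen. It had 26.3, 50.2 and 33.9 CPM in CTR and 266, 178, 36.3 and 236 CPM in VPA, where VPA replicate 3 lay within the CTR range (log2 fold change 2.27, standard error 0.631, adjusted p = 0.393 from edgeR and 0.0189 from DESeq2).

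Markers of the cells that present antigen were read in the same libraries. For 18 macrophage markers the summed level was 554 to 648 CPM in CTR and 450 to 757 CPM in VPA, and Adgre1 and Marco had no count in any library. Of the 12 tested, 6 were higher and 6 lower. Msr1, a scavenger receptor, had 52.3 to 54.6 CPM in CTR and 6.40 to 21.2 CPM in VPA (log2 fold change −1.69, adjusted p = 0.295 from edgeR and 0.0337 from DESeq2). The naming rule asked for its lack of overlap, and 7.38% of all genes tested were lower without overlap. For 12 dendritic cell markers the sums were 48.5 to 94.0 CPM in CTR and 26.2 to 83.0 CPM in VPA, and Batf3, Cd209a, Ccr7 and Siglech had no count. For 11 B cell markers they were 16.2 to 58.3 CPM and 2.73 to 39.7 CPM, with no count of Cd79a, Cd79b, Ighd or Blk. The 16 T and NK cell markers summed to at most 6.40 CPM in any library, and 10 of them had no count.

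The 10 markers of leukocytes in general summed to 152 to 175 CPM in CTR and 74.9 to 183 CPM in VPA. The 14 hepatocyte markers summed to 9253 to 23452 CPM in CTR and 6717 to 20353 CPM in VPA, and 9 of 13 tested were higher. The 12 liver endothelial markers were lower in sum in every VPA library, with 320 to 418 CPM in CTR and 113 to 313 CPM in VPA, and 8 of 10 tested were lower, among them Tek, which passed the filter only through its CTR libraries. Tek, the receptor Tie2 of endothelium, had 12.8 to 16.2 CPM in CTR and no count in any VPA library. Set against 3 counts per library this is at least 8.0-fold lower, a bound that covers counting error only. Because Tek entered edgeR's test through the group where it was high, its adjusted p (0.239 from edgeR and 9.6e-05 from DESeq2) is a description only. The part of these shifts in the values of the 10 genes was not tested.

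**Figure D4:**
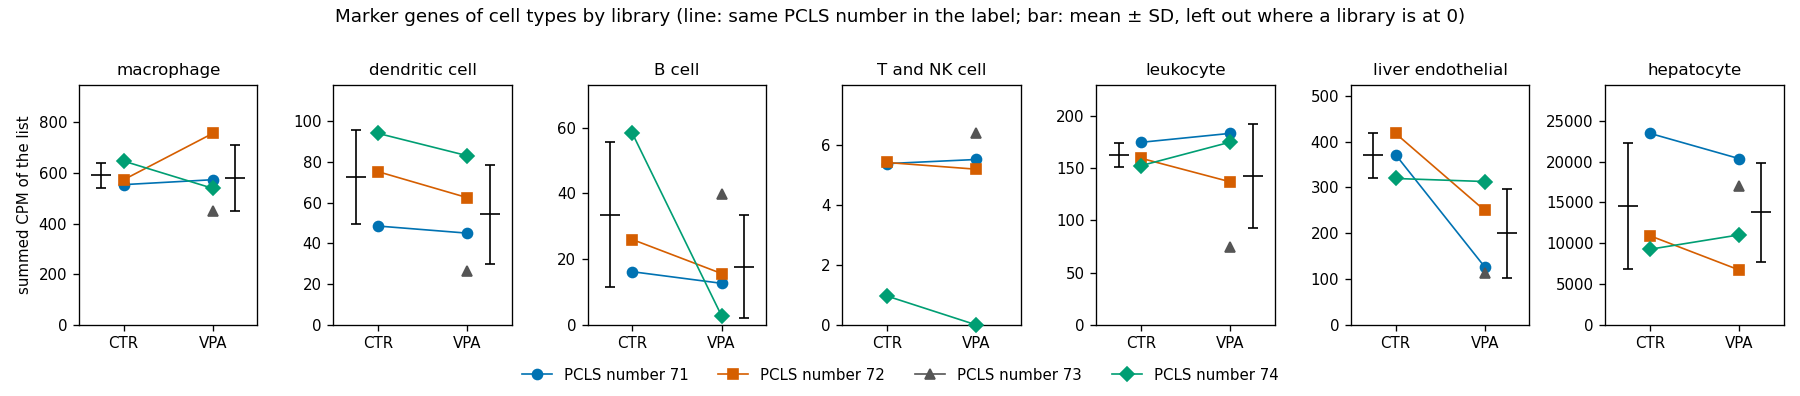
Summed CPM of the marker lists of 7 cell classes in each library, with CTR on the left and VPA on the right of each panel, and bars for the mean ± SD unless a library is at 0. The endothelial sum is below 320 CPM in every VPA library, and the other sums overlap between the groups.

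Pairs of the 10 genes were also set against each other from library to library. Over the 7 libraries, log2 CPM of Psmb9 and Tap1, the neighbours whose promoter windows overlap, gave Pearson's r = 0.211 (exact permutation p = 0.501) and Spearman's rho = 0.786 (exact permutation p = 0.0480), adjusted to 0.751 and 0.144 over the 3 pairs that could be computed. Without the 2 libraries farthest from the median of Psmb9, r was 0.355. Psmb8 with Psmb9 gave r = −0.165 and rho = −0.0360 (exact permutation p = 0.776 and 0.949, adjusted the same), and −0.153 without the 2 farthest. H2-K1 with B2m gave r = 0.529 and rho = 0.679 (exact permutation p = 0.223 and 0.110, adjusted 0.668 and 0.164), 0.633 without the 2 farthest and 0.337 without VPA replicate 4. None held up after adjustment.

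The gene whose profile over the 7 libraries was nearest to that of B2m was H13, at a root mean square difference of 0.116 on the centred log2 CPM scale, where the spread of B2m itself was 0.304. Nearest to Cd74 was Wdcp, at 0.0826 against a spread of 0.435, and nearest to H2-K1 was Rpl39-ps, at 0.0814 against 0.412. For Tap1 it was Pigx, at 0.510 against 1.74, which like Tap1 had no count in CTR replicate 1. With 10876 profiles of 7 values compared, close matches of this kind are a description only.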

How the data were processed

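RNA of mouse PCLS was sequenced with the QuantSeq 3′ FWD kit, and the authors deposited raw read counts per Ensembl gene. Per the labels, mm10 was the genome and STAR and StringTie were used. Versions, and the use of strand or of reads with several matches in counting, are not given in the sources used here. All 7 libraries were grouped by their labels as 3 CTR and 4 VPA. The study counts each liver as 1 biological repeat, but the labels do not tie libraries to livers, nor say what their PCLS number (71 to 74) marks.

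Counts were analysed with edgeR 4.0.16 in R 4.3.3 (TMM, filterByExpr, robust quasi-likelihood test, condition as the term, 10876 genes, Benjamini-Hochberg adjustment over all, threshold 0.05) in place of the DESeq2 test of the study. DESeq2 1.42.0 and limma-voom (limma 3.58.1) were alternatives, beside other normalizations, filters and blocks and leaving out each library. The test was tested on simulated data. CPM are TMM-scaled, with a prior count of 2 for log2 values, and the standard error is the fold change over the root of F. Single values were compared by exact permutation over 35 splits.

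The 10 genes and all 14 lists were chosen with earlier results of these data known. Of each list, genes past the adjusted threshold were named, with up to 3 in each direction among those that did not overlap between groups, had an unadjusted p under 0.05 and reached a mean of 5 CPM. Markers at 0 everywhere, the standard proteasome partners and the genes nearest in profile to B2m, H2-K1, Tap1 and Cd74 were named too. Promoters were from RefSeq (GRCm38.p6) and gene positions from GENCODE VM21. Tap2 had no entry in the promoter table, and the window of Cd74 was left out of the search and is not shown.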

Additional observations from a re-analysis of the deposited data

Results flagged for a closer look

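Of 24 measures looked at in the 4 VPA libraries (total counts, the CPM of the named genes and the log2 ratios), 5 had 1 library that stood apart from the other VPA libraries by Dixon's criterion at 95%. H2-Aa and Tek, with no count in any of the 4, had no spread and could not be judged. About 1 in 20 groups does so by chance, a share that need not hold where counts of 0 set the values, as for Tap2 and Psmb8. VPA replicate 2 held 3102450 counts on genes, against 1400887 to 1515954 in the other VPA libraries. H2-D1 was 815 CPM in VPA replicate 4, against 1288 to 1335 CPM in the others. Tap2 was 25.3 CPM in VPA replicate 3 and 0 in the others. Nfyb was 60.9 CPM in VPA replicate 2, against 37.9 to 41.0 CPM in the others. The log2 ratio of Psmb8 to Psmb5 was −6.29 in VPA replicate 4, where Psmb8 had no count.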

How the results depend on the processing

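None of the 8 tested genes of the 10 passed an adjusted p of 0.05 under any fit, and the log2 fold change of H2-D1 stayed between 0.52 and 0.80 with each library left out. At an unadjusted p under 0.05, 1 of the 10 genes passed (H2-D1, 0.67). The count over all genes depended on the fit, and the cause was not tested. It was 1 in edgeR, 154 in DESeq2 (39 higher, 115 lower), 10 without a filter (2 and 8), 36 where every sample had to reach 10 counts (17 and 19), 900 at an unadjusted p under 0.05 (397 and 503), and 0 to 2 with 1 library left out (0 to 1 higher, 0 to 2 lower). With the replicate block by PCLS number or by replicate number it was 0 (0 higher, and 0 lower). Of the 130 list genes tested in edgeR, 0 passed, and 10 did at an unadjusted p, beside 8.28% of all genes tested. In DESeq2 5 list genes passed (Tapbpl, Ctsl, Msr1, Tek and Cxcl10), beside 1.01% of the genes with an adjusted p. Under the filter of 10 counts 1 list gene passed (Tapbpl), beside the 36 of 6652 genes, and with 1 library left out 0 did.

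Tap1 (0.71) ran from 0.12 to 1.58 and Cd74 (0.19) from 0.0014 to 0.60 with 1 library left out, and Tap1 was 1.79 and 1.82 with the blocks by PCLS number and replicate number. The median of the MHC regulators was −0.21 where every sample had to reach 10 counts. Signs turned for genes whose fold change was near 0. B2m was −0.039 without a filter and −0.15 to 0.24 with 1 library left out. Tapbp was −0.010 in limma-voom, −0.049 without a filter, −0.049 with the block by replicate number and −0.071 to 0.21 with 1 library left out. Psmb8 was −0.19 in limma-voom, −0.081 without a filter, −0.17 with the block by PCLS number, 1.13 with the block by replicate number and −0.57 to 0.67 with 1 library left out. Psmb9 was −0.37 in limma-voom, −0.053 without a filter, −0.55 with the block by replicate number and −0.56 to 0.44 with 1 library left out. With 1 library left out the log2 ratios ran from −1.22 to 1.89 (Psmb8 to Psmb5), −1.13 to 0.52 (Psmb9 to Psmb6) and −2.43 to 0.18 (Psmb10 to Psmb7), and Pearson's r from 0.069 to 0.72 (Psmb9 with Tap1, highest without CTR replicate 1) and −0.33 to 0.23 (Psmb8 with Psmb9).

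Libraries with the same PCLS number (71, 72, 74) deviated from their group means with r = 0.107, 0.0256 and 0.0546. Those with the same replicate number (1, 2, 3) did so with r = −0.0539, 0.0546 and 0.107. Replicates 2 of both groups share number 74 and replicates 3 share number 71, so 0.0546 and 0.107 are the same pairs given again. The pairing was taken as a shared number only. The ratios of H2-D1 to B2m and to H2-K1, with their alternatives, were added after seeing the data, and their differences ran from 0.48 to 0.76 and from 0.20 to 0.37 with 1 library left out. Over genes that passed a minimum count in a pair of replicates, the variance between the 2 was 13.0 to 24.3 times that of counting error (chi-square per degree of freedom). What depth adds to this spread was not tested.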
